A study of Mus musculus with 912 samples.

Results

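The nuclei examined here are VIP interneuron nuclei of the mouse hippocampus that stained for FOS protein (FOS+) 1 h after exposure to a new environment (NE), set against VIP nuclei of the same mice that did not (FOS-). They were chosen by exposure (1 h), by the cell type VIP that the authors predicted for each nucleus, and by at least 4000 genes with a log2(TPM+1) above 1. This rule kept 44 of the 912 nuclei of the series, 27 FOS+ and 17 FOS-. All 27 FOS+ VIP nuclei passed the threshold, and 17 of 27 FOS- VIP nuclei did. The fewest genes in a nucleus that passed were 4455 among FOS+ and 5103 among FOS- nuclei, and the most in a FOS- nucleus that failed were 3969. Of the 44, 42 came from 2 mice that gave both kinds. NE mouse 4 gave 13 FOS+ and 10 FOS- nuclei, and NE mouse 5 gave 14 FOS+ and 5 FOS- nuclei. The other 2 FOS- nuclei came from mouse 2 through another sorting gate and entered an alternative only.

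Single nuclei were sorted by flow cytometry on the neuronal protein NEUN, on the transcription factors PROX1 and CTIP2 and on FOS, and each was made into its own SmartSeq2 library. The NE mice were C57BL/6 females of 9 weeks (mouse 4) and 8.875 weeks (mouse 5) that spent 15 min in the NE and were killed 1 h later. Home cage (HC) mice 4 and 5, of the same strain, sex and ages, did not see the NE and gave 14 and 6 FOS- VIP nuclei. All VIP nuclei in the 6 sums below were PROX1+CTIP2-. The mouse was the replicate, and the FOS+ and FOS- sums came from the same 2 mice. Below, FOS+ mice and FOS- mice mean the FOS+ and the FOS- nuclei of these 2 mice. Each comparison was of 2 sums against 2, where the smallest exact two-sided permutation p is 0.333 if the sums are taken as unpaired. Within the 2 animals fewer exchanges of labels are possible, so pairing does not lower this value. The labels do not say whether further properties differed between the nuclei that were sorted as FOS+ and as FOS-. The total count per nucleus had a median of 599311 in FOS+ nuclei (196740 to 1626187), 327091 in FOS- nuclei (174692 to 1165406) and 534478.5 in HC nuclei (51538 to 933439). The counts summed over nuclei came to 10751390 and 8430173 for FOS+ in mice 4 and 5, 5434274 and 1864270 for FOS-, and 8034794 and 2210011 for HC. Among the 62 nuclei of these 6 sums, 0 pairs held identical values.

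The label VIP held for most nuclei and not for all. Vip, the peptide that names the cells (chr10:5639218-5647617, plus strand, GRCm38, as for all positions below), gave counts in 27 of 27 FOS+, 15 of 15 FOS- and 19 of 20 HC nuclei, and Gad1, the main enzyme of GABA synthesis, gave counts in 27, 14 and 20 of them. Vip was bimodal within each mouse. Nuclei above a log2(TPM+1) of 8 for Vip numbered 6 of 13 and 9 of 14 in FOS+ mice 4 and 5, 9 of 10 and 4 of 5 in FOS-, and 9 of 14 and 3 of 6 in HC. No nucleus was between 5.77 and 8.94, so the value of 8, which was chosen after the values were seen, falls in a gap. Of the Vip-low nuclei, 6 of 7 and 3 of 5 in FOS+ had a Cck above 8, 0 of 1 and 0 of 1 in FOS-, and 3 of 5 and 1 of 3 in HC, and all of them held Gad1. The FOS+ nuclei of mouse 4 thus held the largest share of Vip-low nuclei among the 6 sums and the FOS- nuclei the smallest shares. The part of this mixture in the differences below was not tested, and for the genes of most weight the means within Vip-high nuclei are given beside the means over all nuclei.

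VIP interneurons are GABAergic cells that contact mainly other interneurons, and so release principal cells from inhibition. When a neuron fires, calcium entry activates kinases and the CREB coactivators, and within minutes a first set of genes is transcribed, the immediate early genes (IEGs). Some IEGs encode transcription factors, such as FOS, JUNB and the NR4A nuclear receptors, and others encode effectors that act at the synapse or on signalling, such as ARC and HOMER1.

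No gene passed the test between FOS+ and FOS- VIP nuclei. With edgeR's quasi-likelihood test on the sums, 0 of 15147 genes had a Benjamini-Hochberg adjusted p under 0.05 (0% of those tested), and the smallest adjusted p was 0.877. At an unadjusted p under 0.05 there were 855 genes (5.64%), 624 higher in FOS+ and 231 lower. DESeq2 on the same sums called 336 genes higher (2.22%) and 148 lower (0.977%), and limma on the means of log2(TPM+1) called 0. The common dispersion between sums of a group was 1.48, a biological coefficient of variation of 122%, with 3 residual degrees of freedom. Both FOS+ sums lay above both FOS- sums for 21.1% of all genes tested and below them for 12.5%. Of the 3198 genes above, 815 reached the filter's minimum in 2 sums only through the FOS+ sums, and of the 1888 below, 316 did so only through the FOS- sums, so for these the filter favoured a difference. The median log2 fold change of all 15147 genes was 0.11, and each list below is read against that value.

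Fos itself came first, since it checks the stain. Fos mRNA (chr12:85473890-85477273, plus strand) gave 679 and 1104 counts in the FOS+ sums of mice 4 and 5, 5 and 0 in the FOS- sums, and 1348 and 0 in the HC sums. Its mean log2(TPM+1) over nuclei was 1.99 and 2.69 in FOS+, 0.26 and 0.00 in FOS-, and 2.04 and 0.00 in HC. The FOS+ mice were above the FOS- mice, while 1 HC mouse reached the FOS+ level. The same held within Vip-high nuclei, at 1.40 and 3.76 in FOS+, 0.29 and 0.00 in FOS-, and 2.27 and 0.00 in HC. Pooled over the mice, FOS+ nuclei had 136 times the FOS- level in counts scaled to the library size (CPM), with a 95% interval of 58.3 to 421. Reads without molecular identifiers are not independent molecules, so this interval, and each bound below, covers counting error only. In edgeR the log2 fold change was 7.45 (SE 3.29, unadjusted p = 0.0675). Fos was found in 10 of 27 FOS+ nuclei, 1 of 15 FOS- nuclei and 5 of 20 HC nuclei, so most nuclei sorted as FOS+ held no Fos count.

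The inducible transcription factors had a higher median than all genes tested. Of 24 genes, 13 passed the filter on low counts. None was called by edgeR, while DESeq2 called Klf6, a member of the list. In edgeR 10 had a higher and 2 a lower fold change, and the list's median log2 fold change was 3.35. For 8 of the 13 both FOS+ sums lay above both FOS- sums, against 21.1% of all genes, and for 0 both lay below. The 8 were Fos, Junb, Nr4a1, Nr4a3, Npas4, Ier2, Klf6 and Btg2. Of these, Fos, Junb, Nr4a3, Ier2 and Btg2 passed the filter only through the FOS+ sums. The count and the median therefore describe the list and are not support for a difference. Among the 7 members that passed without the FOS+ sums and without the FOS- sums, 3 were above and 0 below. Of the 12493 genes that passed in this way, 19.1% were above and 12.6% below, and 7 members are too few to read against these shares. Without the filter the list's median over 18 genes was 3.17, beside 0.17 for all genes. Over all 24 members, tested or not, both FOS+ sums were above for 9 and below for 0, beside 17.2% and 9.41% of the 23289 genes with any count. With every nucleus thinned to 150000 counts, 11 of the genes were tested, 9 were higher and 1 lower, and the median was 1.03, below the 1.14 of the inducible effectors at that depth. The list's median was 5.48 without FOS- mouse 4 and 1.77 without FOS+ mouse 4, and 0.68 by limma on the means of log2(TPM+1). Taken within each mouse, the list's median difference was 3.27 in mouse 4 and 1.88 in mouse 5 on the log2 CPM scale. The other 11 genes did not pass the filter, among them Fosb with 158 counts in FOS+ sums of which 157 were in mouse 4, and Fosl1, Egr3, Egr4, Atf3, Klf4 and Maff with 0 counts in every sum.

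The promoters of the genes in this set are shown because CREB binds the short sequence TGACG, or its longer form TGACGTCA. RefSeq promoters of GRCm38.p6, from 250 bases before to 50 bases after the start, were found for 7 of the 8 genes. Each motif was searched on both strands, with overlapping matches counted. TGACG was present in 6 of the 7 and in 20.8% of all 32851 promoters of the same length. TGACGTCA was present in 1 of the 7, Btg2, and in 1.79% of all promoters. The CArG box, bound by SRF, was in 0 of the 7 and in 1.63% of all, and TGANTCA, the form bound by FOS and JUN dimers, was in 0 of the 7 and in 7.81% of all. The matches are letters in a window and not measured sites. The 7 genes were picked because their FOS+ sums were higher, and Fos, Junb, Nr4a3 and Btg2 passed the filter only through those sums. The other members of the list were not set beside them, so these shares describe the 7 promoters and are not support for a difference. Below, capitals mark TGACG or its reverse complement CGTCA, 5′ to 3′ on the gene's strand, for 4 of the genes. All 4 hold a match, and the promoter of Klf6, which holds 0, is not shown. The windows are chr12:85473640-85473939 (plus strand) for Fos, chr8:84978699-84978998 (minus) for Junb, chr4:48045055-48045354 (plus) for Nr4a3 and chr1:134079106-134079405 (minus) for Btg2.
Fos: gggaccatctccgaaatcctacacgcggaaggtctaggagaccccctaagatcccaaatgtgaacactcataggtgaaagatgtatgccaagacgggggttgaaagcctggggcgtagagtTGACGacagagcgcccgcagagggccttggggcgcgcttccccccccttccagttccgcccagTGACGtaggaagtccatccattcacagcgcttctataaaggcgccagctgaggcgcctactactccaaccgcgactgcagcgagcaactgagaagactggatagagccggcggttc
Junb: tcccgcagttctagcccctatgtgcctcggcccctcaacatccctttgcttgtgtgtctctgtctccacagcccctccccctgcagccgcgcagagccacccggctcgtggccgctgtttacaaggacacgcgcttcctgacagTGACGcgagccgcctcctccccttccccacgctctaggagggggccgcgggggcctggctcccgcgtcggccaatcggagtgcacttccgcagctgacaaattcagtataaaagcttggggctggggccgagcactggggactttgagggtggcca
Nr4a3: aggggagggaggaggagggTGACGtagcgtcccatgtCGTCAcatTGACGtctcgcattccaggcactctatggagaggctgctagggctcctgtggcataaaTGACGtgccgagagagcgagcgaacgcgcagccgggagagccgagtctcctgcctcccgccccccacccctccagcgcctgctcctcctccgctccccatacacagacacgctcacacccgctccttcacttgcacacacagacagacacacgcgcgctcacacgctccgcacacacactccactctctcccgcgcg
Btg2: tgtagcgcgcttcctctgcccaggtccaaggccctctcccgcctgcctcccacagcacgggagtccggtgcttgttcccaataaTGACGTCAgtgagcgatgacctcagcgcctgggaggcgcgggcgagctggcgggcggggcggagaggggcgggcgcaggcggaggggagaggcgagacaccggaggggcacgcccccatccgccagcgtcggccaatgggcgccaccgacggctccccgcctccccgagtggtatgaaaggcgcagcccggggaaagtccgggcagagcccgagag

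Fos and Nr4a3 hold 2 and 4 matches in these windows, and Junb holds 1. Btg2 holds 2, which overlap in the palindrome TGACGTCA.

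Junb, Btg2 and Ier2 were at 0 in both FOS- sums. Junb, a partner of FOS in the AP-1 dimer, gave 196 and 128 counts in the FOS+ sums, 0 and 0 in FOS-, and 311 and 0 in HC. Its counts came from 4 and 3 FOS+ nuclei and from 2 HC nuclei of mouse 4. With a floor of 3 counts over the FOS- group, Junb was at least 41.3-fold higher in FOS+ nuclei. Btg2, a regulator of the cell cycle and of mRNA decay, gave 484 and 63 counts in FOS+, none in FOS-, and 0 and 45 in HC, and was at least 69.7-fold higher. Ier2, an early gene of less well known function, gave 118 and 234 counts in FOS+, none in FOS-, and 0 and 6 in HC, and was at least 44.9-fold higher. Ier2 rested on 1 nucleus in each FOS+ mouse.

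Klf6, a zinc finger factor, had the smallest unadjusted p of the list. Its mean log2(TPM+1) was 2.09 and 0.99 in FOS+, 0.07 and 0.00 in FOS-, and 2.03 and 0.37 in HC. Both FOS+ mice were above both FOS- mice, while 1 HC mouse was near the higher FOS+ value and the other was below both FOS+ mice. Klf6 means within Vip-high nuclei were 1.56 and 1.54 in FOS+, 0.08 and 0.00 in FOS-, and 1.23 and 0.75 in HC. The counts were 1576 and 226 in FOS+ against 2 and 0 in FOS-, a ratio of 345 with a 95% counting interval of 95.3 to 2848. Klf6 had a log2 fold change of 8.45 (SE 2.80, unadjusted p = 0.0255), and DESeq2 called it with an adjusted p of 0.00943.

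The NR4A receptors, orphan nuclear receptors induced by calcium and cAMP, differed in level and in evenness. Nr4a3 had a mean log2(TPM+1) of 1.13 and 0.93 in FOS+, 0.04 and 0.45 in FOS-, and 0.27 and 0.85 in HC. Counts were present in 11 of 27 FOS+ nuclei and in 2 of 15 FOS- nuclei, and the log2 fold change was 4.93 (SE 1.87, unadjusted p = 0.0414). Each FOS- sum held 1 count, so the pooled ratio of 41.9 has a counting interval of 11.5 to 348. Nr4a1 was at 1.54 and 1.90 in FOS+, 1.21 and 1.09 in FOS-, and 0.43 and 2.43 in HC, with a log2 fold change of 1.56 (unadjusted p = 0.340). For Nr4a1 the 2 FOS+ mice were above the FOS- mice by less than the gap between the 2 HC mice. Nr4a2 did not pass the filter and is taken up beside CA1.

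Egr1 overlapped between FOS+ and FOS- over all nuclei. Its mean log2(TPM+1) was 1.92 and 2.58 in FOS+, 3.11 and 1.74 in FOS-, and 0.59 and 1.57 in HC. The FOS+ values lay between the 2 FOS- values. Within Vip-high nuclei both FOS+ mice, at 0.89 and 1.84, were below both FOS- mice, at 3.46 and 2.17, and HC was at 0.92 and 1.91. In the sums the log2 fold change was 1.08 (SE 1.01, unadjusted p = 0.328), and it turned to -0.18 on the means of log2(TPM+1). Fosl2 (-1.26, SE 2.02) and Jund (-0.03, SE 2.12) also overlapped in the sums. Jun had 0 counts in all 4 sums of NE mice and 92 and 77 counts in the HC sums. Npas4, a neuron-specific factor tied to calcium entry, gave 456 and 44 counts in FOS+ and 26 and 6 in FOS-, from 3 FOS+ and 2 FOS- nuclei.

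**Figure D1:**
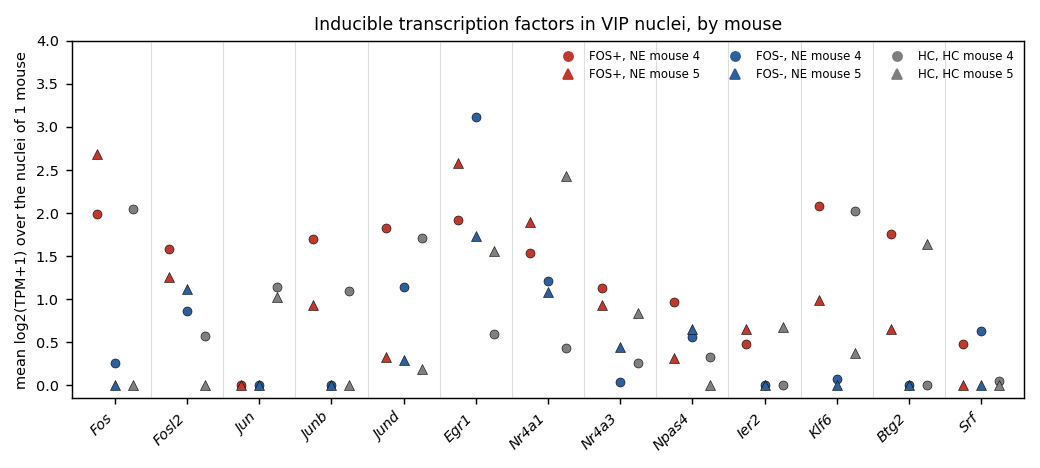
Mean log2(TPM+1) over the VIP nuclei of each mouse (y axis) for the 13 inducible transcription factors that passed the filter (x axis), with FOS+ in red, FOS- in blue, HC in grey, circles for mouse 4 and triangles for mouse 5. Fos, Junb, Klf6 and Btg2 are near 0 in both FOS- mice and not in the FOS+ mice, 1 HC mouse is at or near the FOS+ level for each of them, and Egr1 overlaps.

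Single nuclei held few of these transcripts. Of the 24 genes, the FOS+ nuclei had a count for a median of 4 in mouse 4 (1 to 7) and 3 in mouse 5 (1 to 7). The FOS- nuclei had a median of 2 in mouse 4 (1 to 4) and 2 in mouse 5 (0 to 3), and the HC nuclei 3 (1 to 6) and 1.5 (1 to 5). At least 3 of the genes were found in 10 of 13 and 9 of 14 FOS+ nuclei, in 4 of 10 and 1 of 5 FOS- nuclei, and in 10 of 14 and 1 of 6 HC nuclei. The FOS+ mice were above the FOS- mice, and HC mouse 4 was level with the FOS+ mice by this last count. With every nucleus thinned to 150000 counts, and 1 HC nucleus below that left out, the medians were 3 and 2.5 in FOS+, 1.5 and 1 in FOS-, and 2 and 1 in HC. By this count of genes, both FOS+ mice were above both FOS- mice at equal depth too. The 24 genes include Fos, whose protein set the sort, and the count was not made without it.

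The inducible effectors were less uniform. Of 27 genes 22 were tested, 13 were higher and 9 lower in FOS+, and the median log2 fold change was 0.99. The median rested on single sums, since it was 6.62 without FOS- mouse 4, where 20 genes were higher and 5 lower, and 0.45 without FOS+ mouse 4. Both FOS+ sums lay above both FOS- sums for 6 of the 22, and below them for 2, beside 21.1% and 12.5% of all genes, so these counts are near the background. The 6 were Gadd45b, Sik1, Trib1, Plk2, Plat and Igf1, and the 2 were Homer1 and Scg2. Gadd45b, Trib1 and Plat passed the filter only through the FOS+ sums. None was called by edgeR.

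Gadd45b, a stress sensor that takes part in active DNA demethylation, gave 387 and 221 counts in FOS+ from 4 and 2 nuclei, 0 and 0 in FOS-, and 45 and 0 in HC. It was at least 77.5-fold higher in FOS+ than in FOS- nuclei, and DESeq2 called it with an adjusted p of 0.0451. Sik1, a salt-inducible kinase that phosphorylates the CREB coactivators and HDACs and so limits CREB signalling, was found in 5 nuclei of each FOS+ mouse, in none of the 15 FOS- nuclei, and in 3 and 1 HC nuclei. Sik1 counts were 64 and 181 in FOS+ and 33 and 6 in HC. It was at least 31.2-fold higher in FOS+, with an unadjusted edgeR p of 0.0096 and a DESeq2 adjusted p of 0.0241. Trib1, at least 60.0-fold higher, rested on 1 nucleus in each FOS+ mouse.

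Plk2, a polo-like kinase that acts at dendritic spines, had a mean log2(TPM+1) of 3.16 and 3.78 in FOS+, 0.88 and 0.29 in FOS-, and 2.51 and 0.92 in HC. Counts of Plk2 were present in 15 of 27 FOS+ and 3 of 15 FOS- nuclei. Both FOS+ mice were above all other mice, and the FOS- mice were below both HC mice. The order was the same within Vip-high nuclei, at 4.47 and 4.61 in FOS+, 0.98 and 0.36 in FOS-, and 2.63 and 1.85 in HC. Its summed counts were less clear, with a log2 fold change of 1.70 (SE 1.95, unadjusted p = 0.421). FOS- mouse 4 had 609 counts from 2 nuclei, and its sum of 116 CPM was just under the 117 CPM of FOS+ mouse 4. Vgf, a neuropeptide precursor regulated by activity, was at 5.32 and 4.42 in FOS+, 4.10 and 0.00 in FOS-, and 2.67 and 0.00 in HC, and its sums overlapped. Within Vip-high nuclei Vgf was at 6.01 and 4.80 in FOS+, 4.13 and 0.00 in FOS-, and 1.95 and 0.00 in HC. Homer1 and Scg2 had fold changes below 0 (log2 -1.14, SE 1.37, and -0.90, SE 0.69). Bdnf, the neurotrophin of activity-regulated synapse growth, had 0 counts in every sum.

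The HC mice differed from each other for the inducible transcription factors. The summed level of the 24 genes was 533.3 and 510.7 CPM in FOS+, 261.1 and 104.6 in FOS-, and 439.3 and 155.2 in HC. HC mouse 5 thus fell between the FOS- mice, and by the count of these genes per nucleus its median of 1.5 was below both FOS- mice. The median log2 fold change of the inducible transcription factors was 3.35 for FOS+ over FOS-, 1.45 for FOS+ over HC, and -1.56 for FOS- over HC. EdgeR called 0 genes for FOS+ over HC, where 584 had an unadjusted p under 0.05, and 0 for FOS- over HC, where 743 did. DESeq2 called 230 and 498. These 3 comparisons share their sums and are not independent of each other.

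The activators upstream of the early genes went both ways, and the list as a whole was not tested. Of the 13 CREB and MEF2 factors and coactivators, 7 were higher and 6 lower, with a median of 0.09. Both FOS+ sums were above the FOS- sums for 3 of the 13 (Crem, Crtc2 and Crtc3), beside 21.1% of all genes, and below them for 5 (Creb1, Crebbp, Camk4, Mef2a and Elk1), beside 12.5%. Crtc2, a coactivator that enters the nucleus on calcium and cAMP signals and binds CREB, is named after its values were seen. It stood at 65.0 and 58.5 CPM in FOS+, 2.29 and 3.19 in FOS-, and 3.43 and 2.65 in HC. By these sums HC lay with FOS-. Crtc2 had a log2 fold change of 4.49 (SE 1.42, unadjusted p = 0.0213), and DESeq2 called it with an adjusted p of 0.000964. It was found in 17 of 27 FOS+, 6 of 15 FOS- and 13 of 20 HC nuclei, and by its mean log2(TPM+1) HC overlapped FOS+, at 2.61 and 1.39 in HC and 3.46 and 2.56 in FOS+. Within Vip-high nuclei HC mouse 4, at 2.66, was above both FOS+ mice, at 2.38 and 2.45. Mef2a went the other way, with a log2 fold change of -3.26 (SE 1.24, unadjusted p = 0.0418).

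The genes that the study lists for VIP nuclei were found in most FOS+ nuclei, which most early genes were not. The study chose Hdac9, Inpp5f and A830018L16Rik on these same nuclei, so their values are not independent evidence of a direction. Hdac9 (chr12:34047580-34917095, minus strand), a class IIa histone deacetylase that represses MEF2 targets and leaves the nucleus on calcium signals, had a mean log2(TPM+1) of 6.43 and 4.77 in FOS+, 1.53 and 1.57 in FOS-, and 2.94 and 2.36 in HC. All other mice were below the FOS+ mice, and the HC mice were above the FOS- mice. Its log2 fold change was 3.02 (SE 0.905, unadjusted p = 0.0175) for FOS+ over FOS-, 2.59 for FOS+ over HC and -0.42 for FOS- over HC. Hdac9 was found in 24 of 27 FOS+, 5 of 15 FOS- and 13 of 20 HC nuclei, and after thinning to equal depth in 23 of 27 FOS+ and 5 of 15 FOS- nuclei. Within Vip-high nuclei its means were 5.44 and 4.88 in FOS+, 1.70 and 1.96 in FOS-, and 2.45 and 3.59 in HC.

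Inpp5f (chr7:128611328-128696425, plus strand), a phosphoinositide phosphatase of the endosome, was at 7.04 and 7.46 in FOS+, 3.70 and 4.43 in FOS-, and 5.68 and 5.23 in HC. Both FOS+ mice were the highest, the FOS- mice the lowest and the HC mice between. Inpp5f was found in every FOS+ nucleus and in 11 of 15 FOS- nuclei, with a log2 fold change of 1.11 (SE 0.533, unadjusted p = 0.0862). Within Vip-high nuclei the means were 6.10 and 8.19 in FOS+ and 4.11 and 3.28 in FOS-, while HC mouse 4, at 5.62, was above HC mouse 5, at 3.37.

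A830018L16Rik (chr1:11414105-11975901, plus strand), a gene of little known function, went the opposite way. Its mean log2(TPM+1) was 3.54 and 1.71 in FOS+, 5.99 and 7.09 in FOS-, and 4.90 and 4.48 in HC. The FOS- mice were the highest, the FOS+ mice the lowest and the HC mice between. For A830018L16Rik the log2 fold change was -3.75 (SE 1.10, unadjusted p = 0.0159) for FOS+ over FOS- and -1.73 for FOS+ over HC, and DESeq2 called the first with an adjusted p of 0.0450. It was found in 20 of 27 FOS+ and 13 of 15 FOS- nuclei, and at equal depth in 13 of 27 and 13 of 15. Within Vip-high nuclei the means were 3.05 and 1.85 in FOS+, 6.65 and 7.75 in FOS-, and 5.16 and 7.42 in HC.

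**Figure D2:**
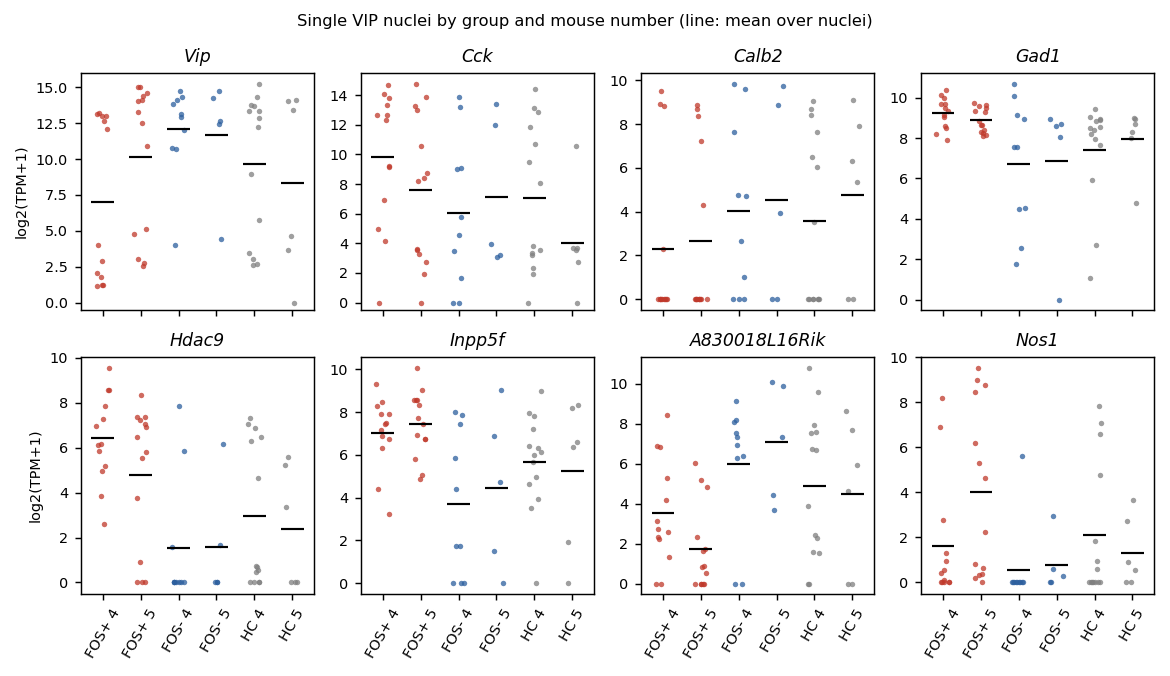
Log2(TPM+1) of single VIP nuclei (1 point each, y axis) by group and mouse (x axis) for Vip, Cck, Calb2, Gad1, Hdac9, Inpp5f, A830018L16Rik and Nos1, with horizontal bars at the mean of each mouse. Vip falls into a high and a low set of nuclei, Hdac9 is detected in 24 of 27 FOS+ nuclei and 5 of 15 FOS- nuclei, and the bars of A830018L16Rik are higher in both FOS- mice than in both FOS+ mice.

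Over all 13 histone deacetylases and sirtuins 8 were higher and 5 lower, with a median log2 fold change of 0.82 that was 2.27 within mouse 4 and -0.16 within mouse 5. Both FOS+ sums were above the FOS- sums for 4 of the 13, Hdac1, Hdac5, Hdac8 and Hdac9, beside 21.1% of all genes, and below them for 1, Hdac7, beside 12.5%. Hdac8 passed the filter only through the FOS+ sums. At equal depth the median was -0.04, with 5 of 11 higher and 6 lower. Hdac5, another class IIa member, was at 4.91 and 5.99 in FOS+, 3.23 and 1.60 in FOS-, and 2.05 and 3.85 in HC on the mean log2(TPM+1) scale, with the FOS+ mice above all others. Its log2 fold change was 1.71 (SE 0.941, unadjusted p = 0.123). The other class IIa members had fold changes below 0, Hdac4 at -1.88 with sums that overlapped and Hdac7 at -2.51 (SE 2.05), so 2 members of this class were higher in FOS+ and 2 lower.

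The genes of GABA synthesis and transport stayed near the median of all genes. Of 7 genes, 4 were higher and 3 lower, with a median log2 fold change of 0.16. Both FOS+ sums were above for 1 of the 7, Gad1, and below for 1, Slc38a1, shares near those of all genes. The mean log2(TPM+1) of Gad1 was 9.24 and 8.88 in FOS+, 6.73 and 6.86 in FOS-, and 7.43 and 7.95 in HC. The FOS+ mice were above all other mice and the FOS- mice below all others. In the sums the log2 fold change was 0.85 (SE 0.396, unadjusted p = 0.0797), and DESeq2 did not call it (adjusted p = 0.944). The order was the same within Vip-high nuclei, at 9.10 and 8.79 in FOS+, 7.19 and 6.40 in FOS-, and 7.87 and 8.33 in HC. Gad2, the second synthetic enzyme, was also higher in both FOS+ mice by this mean (7.32 and 7.09 against 6.85 and 3.85), but its sums overlapped, at 592 and 675 CPM in FOS+ and 707 and 305 CPM in FOS-. The sums of Slc32a1, the vesicular transporter, overlapped as well.

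The peptides as a list were near the median of all genes. Of 17 neuropeptides and granins 12 were tested, 7 were higher and 5 lower, and the median was 0.14. Both FOS+ sums were above for 3 of the 12, beside 21.1% of all genes, and below for 2, beside 12.5%. Npy, 1 of the 3, passed the filter only through the FOS+ sums. Vip itself had a mean log2(TPM+1) of 7.04 and 10.16 in FOS+, 12.06 and 11.70 in FOS-, and 9.66 and 8.31 in HC. The FOS+ mice were below the FOS- mice by this mean, but the sums overlapped, with 1811 and 12287 CPM in FOS+ and 8954 and 10416 CPM in FOS-. Vip had a log2 fold change of -0.46 (SE 0.782, unadjusted p = 0.581). Within Vip-high nuclei the means were 12.85 and 13.76 in FOS+, 12.95 and 13.51 in FOS-, and 13.08 and 13.86 in HC, values given as a description only, since these nuclei were chosen by their Vip level.

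Cck and Calb2 divide hippocampal VIP cells into basket cells and interneuron-selective cells. Cck was at 9.85 and 7.57 in FOS+, 6.07 and 7.12 in FOS-, and 7.06 and 4.04 in HC, with a log2 fold change of 0.91 (SE 0.843, unadjusted p = 0.327). Both FOS+ mice were above both FOS- mice over all nuclei, but not within Vip-high nuclei, where Cck was at 8.30 and 6.97 in FOS+, 6.23 and 8.11 in FOS-, and 5.97 and 2.46 in HC. There FOS+ was above FOS- in mouse 4 and below it in mouse 5. Calb2, encoding calretinin, was at 2.28 and 2.67 in FOS+, 4.02 and 4.51 in FOS-, and 3.57 and 4.78 in HC, with -1.61 (SE 0.788, unadjusted p = 0.0896). The FOS+ mice were the lowest for Calb2 over all nuclei. Within Vip-high nuclei the direction turned, at 4.93 and 3.68 in FOS+, 4.47 and 3.2 in FOS-, and 3.76 and 4.41 in HC, so that FOS+ was above FOS- in each mouse while the groups overlapped. Nuclei with counts of Cck and not of Calb2 numbered 9 of 13 and 9 of 14 in FOS+, 3 of 10 and 2 of 5 in FOS-, and 6 of 14 and 2 of 6 in HC.

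Among the other peptides, Pthlh, a parathyroid hormone-like peptide, was found in 8 FOS+ nuclei and 1 FOS- nucleus, and gave 461 and 1048 counts in FOS+, 12 and 0 in FOS-, and 659 and 381 in HC. Its log2 fold change was 6.09 (SE 1.85, unadjusted p = 0.0183), and DESeq2 called it with an adjusted p of 0.00544. The HC level was near that of FOS+. Npy, at 0 in FOS- sums, rested on 1 nucleus in each FOS+ mouse. Penk, the enkephalin precursor, was at 5.49 and 6.65 in FOS+, 8.00 and 7.64 in FOS-, and 6.48 and 7.31 in HC, and its sums overlapped (log2 fold change -1.01, SE 0.80). Penk means overlapped within Vip-high nuclei, at 7.77 and 8.6 in FOS+ and 8.89 and 6.54 in FOS-. Htr3a, the ionotropic serotonin receptor that marks this interneuron class, was at 9.43 and 7.63 in FOS+, 6.51 and 3.91 in FOS-, and 6.57 and 8.18 in HC, with a log2 fold change of 1.36 (SE 0.630, unadjusted p = 0.0778). Within Vip-high nuclei Htr3a was at 8.28 and 8.84 in FOS+, 6.21 and 4.89 in FOS-, and 6.35 and 6.85 in HC.

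Receptor genes as lists had medians near that of all genes. For glutamate receptors 11 of 23 tested were higher and 12 lower (median log2 fold change -0.01), for GABA receptors 7 of 14 and 7 of 14 (0.08), and for neuromodulator receptors 9 of 17 and 8 of 17 (0.16). Both FOS+ sums were above for 4 of 23 glutamate, 4 of 14 GABA and 7 of 17 neuromodulator receptors, beside 21.1% of all genes. They were below for 5 of 23, 2 of 14 and 3 of 17, beside 12.5%. Of the receptors above, Gabra5 and Gabrg1 (GABA) and Drd1 and Oprm1 (neuromodulator) passed the filter only through the FOS+ sums. Htr3a and Cnr1, the cannabinoid receptor of Cck basket cells, are among the 7 and are named after their values were seen, and Cnr1 was at 3961 and 2768 CPM in FOS+, 2628 and 2214 in FOS-, and 2070 and 2742 in HC. Within Vip-high nuclei the mean log2(TPM+1) of Cnr1 overlapped, at 8.10 and 8.84 in FOS+ and 8.55 and 9.05 in FOS-. Grin2b, an NMDA receptor subunit found in every nucleus, had a mean log2(TPM+1) of 9.60 and 9.65 in FOS+, 9.86 and 9.48 in FOS-, and 9.52 and 9.66 in HC, and a log2 fold change of 0.16 (SE 0.27). Grin2a, another NMDA receptor subunit, gave 211 and 411 counts in FOS+, 2 and 0 in FOS-, and 204 and 256 in HC, from 6 FOS+ and 2 FOS- nuclei, and DESeq2 called it. Its direction turned in the fit that took mice of any gate (-0.67). Grm8, a metabotropic receptor, is 1 of the 5 glutamate receptors with both sums below, and it and Grin2a are named after their values were seen. Grm8 was at 2.71 and 1.01 in FOS+, 4.39 and 1.95 in FOS-, and 5.50 and 2.96 in HC, with a log2 fold change of -3.45 (SE 1.13, unadjusted p = 0.0247). The mice overlapped for Grm8 on this scale while the sums did not.

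**Figure D3:**
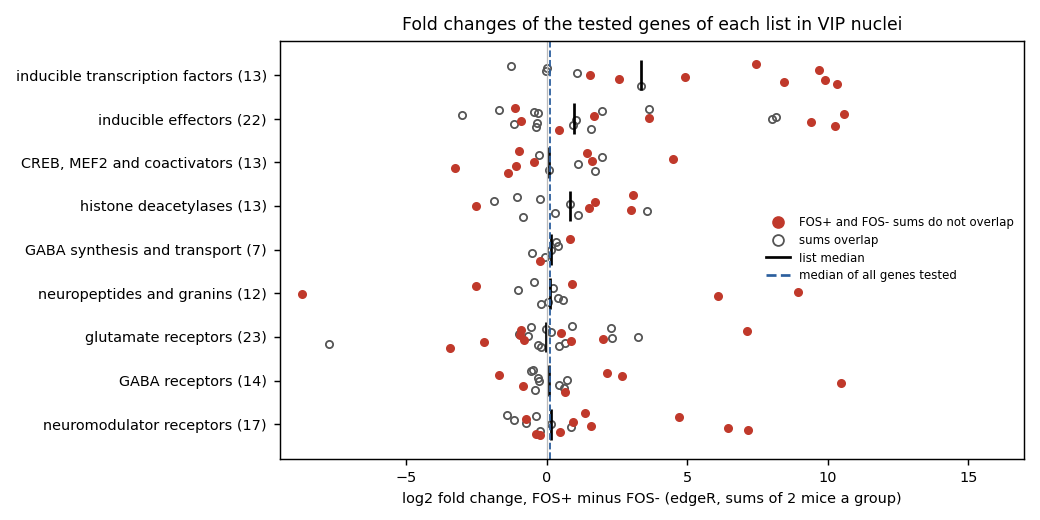
Log2 fold change of each tested gene between FOS+ and FOS- sums (x axis, points, filled where the sums do not overlap) for each gene list (y axis), with the list's median as a bar and the median of all 15147 genes, 0.11, as a dashed line. The inducible transcription factors have a median of 3.35, and 5 of their 13 genes passed the filter only through the FOS+ sums. At equal depth their median is 1.03, below the 1.14 of the inducible effectors. The receptor lists lie near the line.

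The genes of smallest unadjusted p were named by a rule that asked for both sums apart, a mean of at least 10 CPM and a count in at least 5 nuclei of each mouse of the higher group. It left 1211 genes higher and 288 lower, which are not comparable, since a lower gene had to be found in 5 of 5 FOS- nuclei of mouse 5 and a higher gene in 5 of 13 and 5 of 14 FOS+ nuclei. The first 8 each way are described, and none was called by edgeR (all at the adjusted p of 0.877). Degs1, a desaturase of ceramide synthesis, stood at 70.6 and 61.4 CPM in FOS+, 0 and 0 in FOS-, and 71.8 and 142.7 in HC. It was found in 12 FOS+ nuclei, no FOS- nucleus and 5 HC nuclei, and was at least 158-fold higher in FOS+ than in FOS- (unadjusted p = 0.00222). Dnajc7, a co-chaperone, stood at 94.7 and 225.5 CPM in FOS+, 5.53 and 4.25 in FOS-, and 137.3 and 159.0 in HC. Dnajc7 had a log2 fold change of 5.02 (SE 0.956, unadjusted p = 0.00237). Ino80d, a subunit of the INO80 chromatin remodeller, stood at 126.3 and 100.8 CPM in FOS+, 0.572 and 1.06 in FOS-, and 80.1 and 25.6 in HC.

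Agpat3, Uimc1, Golga4, Wls and Atxn7l1 completed the 8, with log2 fold changes from 4.67 (Uimc1, SE 1.07) to 8.94 (Wls, SE 2.10). All 8 were called by DESeq2. For each of the 8 both HC sums were above both FOS- sums, but the genes were chosen for the distance of the FOS+ from the FOS- sums, which by itself favours low FOS- sums, so nothing is read from this about HC. For Wls, a carrier of secreted WNT proteins, the counts in FOS- came from 1 nucleus, and the direction turned (-0.16) in the fit that took mice of any gate, which added the 2 FOS- nuclei of mouse 2 and 2 HC nuclei of a further mouse.

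Of the 8 lower genes, 1500004A13Rik (chr3:88782943-88832547, minus strand), a transcript annotated as non-coding, was found in every nucleus of all 6 sums. It stood at 132.0 and 119.9 CPM in FOS+, 544.1 and 576.5 in FOS-, and 253.7 and 212.0 in HC. Both FOS- sums were the highest, both FOS+ sums the lowest and the HC sums between. The log2 fold change was -2.15 (SE 0.449, unadjusted p = 0.00363), and DESeq2 called it with an adjusted p of 0.0492. Within Vip-high nuclei its mean log2(TPM+1) was 4.98 and 5.77 in FOS+, 7.47 and 9.31 in FOS-, and 6.15 and 4.89 in HC.

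Pola1, the catalytic subunit of DNA polymerase alpha, stood at 4.20 and 6.75 CPM in FOS+, 87.5 and 215.9 in FOS-, and 54.8 and 122.8 in HC. Here the HC sums lay with the FOS- sums, and the log2 fold change was -4.79 over FOS- (SE 1.13, unadjusted p = 0.00642) and -4.01 over HC. Chd6, a chromatin remodeller, stood at 181.9 and 279.4 CPM in FOS+, 545.5 and 985.0 in FOS-, and 507.6 and 623.3 in HC, and was found in every nucleus. Brinp3, Enah, Tbce, D930015E06Rik and A830018L16Rik made up the rest, with log2 fold changes from -3.75 to -1.14. DESeq2 called 3 of the 8, 1500004A13Rik, Pola1 and A830018L16Rik.

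**Figure D4:**
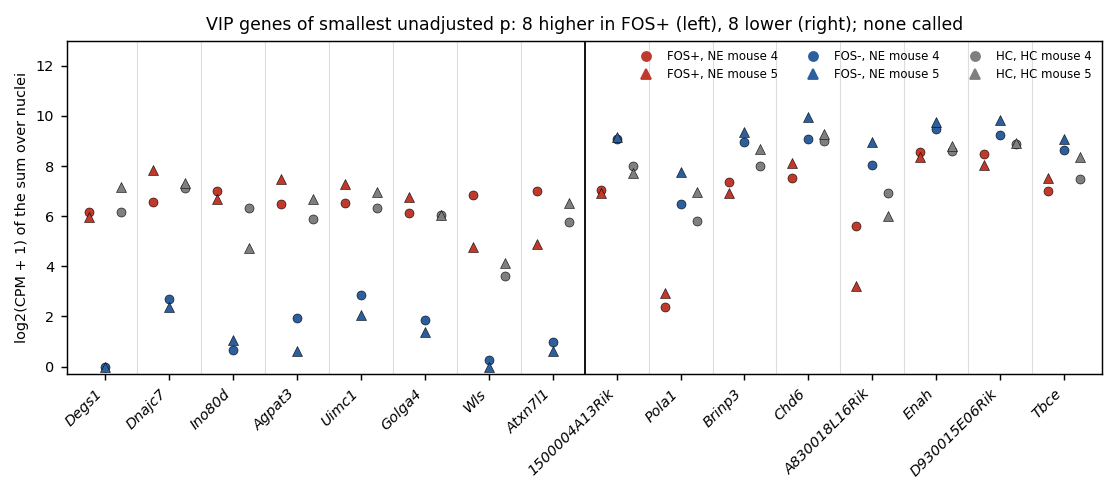
Log2(CPM + 1) of each sum (y axis) for the 16 genes of smallest unadjusted p (x axis), 8 higher and 8 lower in FOS+, with FOS+ in red, FOS- in blue, HC in grey, circles for mouse 4 and triangles for mouse 5. The 8 higher genes have both FOS- sums apart from the FOS+ and HC sums, and among the lower genes Pola1 has its FOS+ sums furthest below the other sums.

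CA1 pyramidal nuclei were set beside the VIP nuclei at 1 h. The CA1 sums held 33 FOS+ and 21 FOS- nuclei of NE mice 2, 4 and 10 and 19 HC nuclei of mice 3, 4 and 8, aged 8.7 (mice 2 and 3), 9 (both mice 4) and 8.85 weeks (mice 10 and 8). None of these animals gave any of the 6 VIP sums, and the CA1 mice numbered 4 are not the VIP mice numbered 4. CA1 nuclei of mice 2 and 3 were sorted as PROX1-CTIP2+ and the others as PROX1-CTIP2-, so cell type, animal and gate cannot be told apart in this comparison. CA1 FOS- and HC nuclei with Arc above a log2 of 2.5 had been left out, following the study's rule, while no FOS- or HC VIP nucleus was above it. The CA1 folds below are therefore also given with all 32 FOS- and 35 HC nuclei of CA1 kept. In 1 edgeR fit over both cell types, 0 of 18200 genes were called for the difference in VIP minus that in CA1 (0%), with 1105 at an unadjusted p under 0.05, and DESeq2 called 420. Vip had a count in none of the 73 CA1 nuclei, and Slc17a7, the glutamate transporter of CA1, in all of them and in 2 of 27 FOS+, 2 of 15 FOS- and 6 of 20 HC VIP nuclei.

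Homer1, whose short form unlinks synaptic scaffolds, had a mean log2(TPM+1) of 7.60, 5.88 and 6.47 in CA1 FOS+ mice, 3.78, 1.88 and 1.11 in CA1 FOS- mice, and 3.95, 2.56 and 4.97 in CA1 HC mice. In VIP nuclei it was at 1.15 and 1.73 in FOS+, 1.27 and 2.36 in FOS-, and 1.10 and 0.65 in HC. By these means FOS+ was above FOS- and HC in CA1, while FOS+ and FOS- overlapped in VIP. The VIP sums of Homer1 did not overlap, at 11.4 and 30.2 CPM in FOS+ and 37.6 and 54.2 in FOS-. The log2 fold change was 2.72 in CA1 and -1.06 in VIP, a difference of -3.78 (SE 1.69, edgeR unadjusted p = 0.0456, adjusted p = 0.816). With the CA1 nuclei kept whatever their Arc, it was 2.11 in CA1 and the difference -3.2 (SE 1.27, edgeR adjusted p = 0.769). Homer1 counts were present in 33 of 33 FOS+ nuclei of CA1 and 13 of 27 FOS+ nuclei of VIP type.

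Nr4a2 also overlapped in VIP and not in CA1. It was at 6.21, 6.55 and 5.69 in CA1 FOS+ mice and 1.18, 0.53 and 1.36 in CA1 FOS- mice, and at 0.44 and 0.38 in VIP FOS+ and 0.64 and 0.23 in VIP FOS- mice. The VIP values rest on few counts, 9 and 5 in FOS+ and 20 and 1 in FOS-, and Nr4a2 did not pass the filter among VIP sums. With that limit, the log2 fold change was 4.95 in CA1 and -1.58 in VIP, a difference of -6.53 (SE 2.29, edgeR unadjusted p = 0.0145, adjusted p = 0.816). With all CA1 nuclei kept, Nr4a2 gave 3.95 in CA1 and a difference of -5.54 (SE 2.01, edgeR adjusted p = 0.769). Nr4a1 gave 5.37 in CA1 and 1.62 in VIP, a difference of -3.76 (SE 2.62, adjusted p = 0.915 in edgeR), but with all CA1 nuclei kept it gave 1.55 in CA1 and a difference of 0.05 (SE 2.56), so the difference of Nr4a1 rested on the Arc rule. Nr4a3 gave 3.08 and 5.05, a difference of 1.97 (SE 2.05), and 2.55 (SE 2.21) with all CA1 nuclei kept. The mean log2(TPM+1) of Nr4a3 was still higher in CA1, at 6.44, 6.64 and 5.04 in FOS+ mice against 1.13 and 0.93 in VIP FOS+ mice. EdgeR called no difference for these 3 receptors.

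Fos did not set the cell types apart in this test. It was found in 17 of 33 CA1 FOS+ and 2 of 21 CA1 FOS- nuclei, with log2 fold changes of 10.6 in CA1 and 7.52 in VIP and a difference of -3.09 (SE 3.44, adjusted p = 1.00 in edgeR). With all CA1 nuclei kept the Fos fold change was 5.76 in CA1 and the difference turned to 1.74 (SE 3.09). Equality was not shown. Arc, a regulator of AMPA receptor endocytosis, had counts in 26 of 33 FOS+ nuclei of CA1 and in 2 of 27 of VIP type. Its mean log2(TPM+1) was 5.57, 3.38 and 1.39 in the CA1 FOS+ mice and 0.00 and 0.60 in the VIP FOS+ mice. No FOS- or HC nucleus of the 6 VIP sums had an Arc count. As Arc chose the CA1 FOS- and HC nuclei, no fold over FOS- is given for it.

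**Figure D5:**
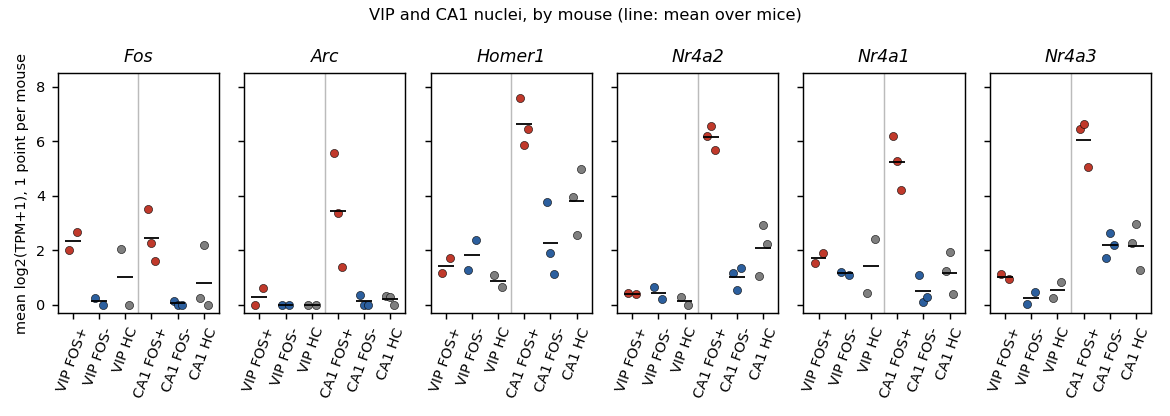
Mean log2(TPM+1) per mouse (y axis) for Fos, Homer1, Nr4a1, Nr4a2, Nr4a3 and Arc in VIP and CA1 nuclei (x axis), with FOS+ in red, FOS- in blue, HC in grey and bars at the mean over mice. Homer1 and Nr4a2 of CA1 FOS+ mice lie between 5.69 and 7.60, and those of VIP FOS+ mice between 0.38 and 1.73.

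Markers of other cells were low beside the VIP interneuron list, which summed to between 16457 and 23278 CPM in the 6 sums, and overlapped between FOS+ and FOS- sums except for the neurogliaform and ivy list and the microglial list. Glutamatergic markers summed to 259.7 and 533.0 CPM in FOS+, 495.0 and 612.0 in FOS-, and 958.2 and 473.8 in HC, mostly Camk2a, and Emx1 was at 0. CA1 markers summed to 37.8 and 54.9 CPM in FOS+ and 414.8 and 1.07 in FOS-, where 1925 counts of Fibcd1 came from 1 nucleus. Dentate granule markers summed to 148.1 and 3.9 in FOS+ and 5.5 and 29.5 in FOS-, with C1ql2, Dsp and Plk5 at 0. Parvalbumin or somatostatin markers summed to 1.02 and 47.4 in FOS+ and 33.7 and 0.536 in FOS-, with Sst at 0 in FOS+ and Chodl at 0 in all sums.

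Of the neurogliaform and ivy list 4 of 6 genes were tested, all 4 higher in FOS+ (median log2 fold change 3.31). For 3 of the 4 both FOS+ sums were above both FOS- sums, beside 21.1% of all genes. Npy, among these, passed the filter only through the FOS+ sums. The count and the median therefore describe this list and are not support for a difference. Its sums were 535.5 and 769.9 CPM in FOS+, 62.2 and 198.5 in FOS-, and 417.8 and 165.6 in HC. The most abundant genes were Reln and Nos1, and Ndnf, a defining marker, was at 0. Nos1, the neuronal nitric oxide synthase, was found in 21 of 27 FOS+ and 3 of 15 FOS- nuclei, with means of 1.63 and 4.04 in FOS+, 0.56 and 0.77 in FOS-, and 2.12 and 1.31 in HC (log2 fold change 4.15, SE 2.12, edgeR unadjusted p = 0.102). Reln, the extracellular protein reelin, was found in 17 of 27 and 5 of 15. Within Vip-high nuclei the Nos1 means were 1.62 and 4.14 in FOS+, 0.63 and 0.89 in FOS-, and 3.2 and 0.91 in HC. Reln means there were 1.31 and 1.16 in FOS+, 0.67 and 0.32 in FOS-, and 1.87 and 1.64 in HC, so the HC mice were the highest. The part of these markers in the other differences was not tested.

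Glial markers gave 59.2 and 154.0 CPM (astrocyte), 195.6 and 243.9 (oligodendrocyte), 3.81 and 0.356 (oligodendrocyte precursor), 28.8 and 28.1 (microglia) and 2.70 and 9.96 (endothelial or mural) in FOS+. In FOS- the same lists gave 223.4 and 129.3, 531.3 and 3.22, 7.55 and 0, 3.31 and 3.22, and 45.3 and 4.29. Aldoc and Mbp led the astrocyte and oligodendrocyte lists, Gja1 was at 0 in all 4 sums of NE mice, and Tmem119, Cldn5, Cspg4 and Olig2 were at 0. The microglial list was higher in both FOS+ sums, led by C1qa in mouse 4 and Csf1r in mouse 5, each at 0 in the other FOS+ sum. The C1qa counts came from 1 nucleus. Only 1 of the 6 microglial genes was tested, with a log2 fold change of -0.14. Stress and dissociation genes had 7 of 10 higher and 3 lower, with a median log2 fold change of 0.35. Respiratory chain genes had 52 of 88 higher (median 0.21), ribosomal protein genes 58 of 90 (0.30), and nuclear-retained RNAs 2 of 6 (-0.08).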

How the data were processed

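Single nuclei were sorted by flow cytometry and sequenced by SmartSeq2. Per the labels and the study's methods, the authors trimmed reads with Solexa-QA++ and counted them with RSEM and Bowtie on mm10 with Ensembl genes (versions not given in the sources used here). The authors deposited RSEM expected counts, all whole numbers here (42802 genes, 30 without a value), and log2 values, log2(TPM+1) (40221 genes). SmartSeq2 has no molecular identifiers, so depth is in reads. For this report, counts of the nuclei of 1 mouse and group were summed (6 sums, 2 mice per group, PROX1+CTIP2- gate), filtered by filterByExpr, scaled by TMM and tested with edgeR 4.0.16 (quasi-likelihood, Benjamini-Hochberg, threshold 0.05, R 4.3.3). The methods were checked on simulated data. The study's own test, ROTS over nuclei, was not run, since nuclei of 1 mouse are not replicates. DESeq2 1.42.0 and limma 3.58.1 were alternatives, as were other filters, scalings and nuclei, equal depth, and each sum left out.

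The nuclei and gene lists were chosen with earlier results of these data known. Named genes were all members of the inducible, GABA, peptide and study lists, Fos, Homer1, Nr4a2 and Arc beside CA1, and, where fewer than 8 genes pass, the 8 of smallest p each way with a mean of 10 CPM, sums apart and counts in 5 nuclei per mouse of the higher group. The further lists (CREB and MEF2 factors, histone deacetylases, receptors, stress, respiratory, ribosomal and nuclear-retained genes, cell markers) are summarised. Mitochondrially encoded genes numbered 0 in the table. Positions come from GENCODE vM21 (GRCm38) for 264 of 265 genes, and promoters from RefSeq GRCm38.p6.

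FOS+ and FOS- sums of a number share the animal, and HC mice of that number share a date code. Over 15147 genes, same-number deviations correlated at 0.0168 (FOS+ with FOS-), 0.00922 (FOS+ with HC) and 0.0503 (FOS- with HC). The labels do not tie the nuclei of a mouse to separate preparations, so p-values measure the spread between mice and between sorts together.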

Additional observations from a re-analysis of the deposited data

How the results depend on the processing

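No gene was called by edgeR in any of the 3 contrasts among VIP sums under another scaling, filter, set of nuclei, equal depth or with any of the 6 sums left out, nor by limma. None was called against CA1 under another scaling, without the filter, with mice of any gate, with nuclei of any Arc level, at equal depth or with a FOS+ or FOS- sum left out (HC sums were not left out there). With nuclei of any Arc level the difference of Fos between VIP and CA1 turned from -3.09 to 1.74 and that of Nr4a1 from -3.76 to 0.05. DESeq2 called 484 genes for FOS+ over FOS-, 230 for FOS+ over HC, 498 for FOS- over HC and 420 for VIP against CA1. With the mouse number as a replicate block (FOS+ and FOS- sums of a number come from 1 animal), edgeR called 0 genes for FOS+ over FOS- (635 at an unadjusted p under 0.05), and the block changed no other call.

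Of 792 alternative log2 fold changes of 47 named genes, 768 kept direction and side of the threshold, 18 were called by DESeq2 only and 6 reversed. Egr1 was at -0.18 with limma on mean log2(TPM+1) under both filters. With mice of any gate, which added the 2 FOS- nuclei of mouse 2 and 2 HC nuclei of another mouse, Vip was at 0.12, Grin2a at -0.67 and Wls at -0.16. Leaving out 1 sum at a time, Vip ranged from -2.40 (without FOS+ replicate 5) to 0.38 (without FOS+ replicate 4). At equal depth 3 of 26 shares of nuclei with a count left the 95% interval of their value at full depth, going to 0.0% for Klf6 in FOS-, 48.1% for A830018L16Rik in FOS+ and 51.9% for Nos1 in FOS+. The causes were not tested.

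List medians under 17 alternatives were added after seeing the data. The inducible transcription factors stayed above 0 in all of these settings, from 0.40 to 5.48, with 1.03 at equal depth, 5.48 without FOS- replicate 4 and 1.77 without FOS+ replicate 4. The effectors also did, from 0.19 to 6.62, with 6.62 without FOS- replicate 4. Both lists hold members that passed the filter only through the FOS+ sums, and Fos is the sorted marker. The median of all genes was not below 0 in any setting either, from 0.00 to 0.91. Staying above 0 is therefore not by itself support for a difference. The median of all genes moved to 0.91 without FOS- replicate 4, the library of greatest depth in that group, and to 0.31 without FOS- replicate 5. The other lists crossed 0: CREB and MEF2 factors from -0.33 to 0.89, histone deacetylases from -0.14 to 1.59, peptides from -0.42 to 0.52, GABA synthesis from -0.18 to 1.07, glutamate receptors from -0.38 to 0.35, GABA receptors from -0.37 to 0.54 and neuromodulator receptors from -0.17 to 1.31.

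With 2 mice per group and a coefficient of variation of 122% between sums, edgeR called no gene for FOS+ over FOS-, genes found in every nucleus included (1500004A13Rik and Chd6, adjusted p = 0.877). FOS- mouse 5 rested on 5 nuclei.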
